A study of Mus musculus with 30 samples.

Results

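The 10 genes *Lama1*, *Lamb1*, *Lamc1*, *Nid1*, *Nid2*, *Sparc*, *Srgn*, *Plat*, *Thbd* and *Pth1r* are known for their expression in parietal endoderm and were taken by symbol from a table of 25400 genes. *Srgn* was picked for its high value in a single library, numbered s18 in the deposited table, and its values in the line of that library are given here as a description with no test. Poly(A) RNA was sequenced from mouse NPCs that ESCs had formed by day 8 of neuronal differentiation in vitro, in 24 libraries, 3 for each of 8 lines. Beside WT and Mbd3-KO there are 6 lines in which Mbd3-KO cells carry a construct (MBD3a, MBD3delMBD, MBD2a, MBD2adelGR, MBD2aR181C or MBD2t), expressed from a single genomic site under the CAG promoter, and the study asked which isoforms and domains of MBD2 and MBD3, alternative subunits of the NuRD chromatin remodelling complex, can take the place of MBD3 in neuronal commitment. All 7 lines other than WT thus lack endogenous MBD3. Puromycin was used in making the Mbd3-KO cells and ganciclovir in selecting the construct lines, and all derive from the ESC line HA36CB1. MBD3delMBD lacks the methyl-CpG binding domain, MBD2adelGR lacks the N-terminal glycine-arginine repeats, and MBD2aR181C carries a point mutation in the binding domain. The deposited columns and the paper's text number that mutation differently, and the columns were taken as this line because it is the only MBD2a point mutant. Separately generated clones gave the libraries of a line, but the MBD2t libraries repeat 1 clone and so hold no difference between clones.

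Parietal endoderm arises from the primitive endoderm, migrates along the inner face of the trophoblast and deposits Reichert's membrane, a thick basement membrane. Its scaffold is built from laminin, a heterotrimer whose early embryonic form joins the alpha1 (*Lama1*), beta1 (*Lamb1*) and gamma1 (*Lamc1*) chains, from type IV collagen, and from the nidogens (*Nid1*, *Nid2*), which link the laminin and collagen networks. *Sparc* encodes a secreted glycoprotein that binds calcium and collagen, *Srgn* the core protein of the proteoglycan serglycin, *Plat* tissue-type plasminogen activator, *Thbd* the thrombin receptor thrombomodulin, and *Pth1r* the receptor for parathyroid hormone and its related peptide, which promotes the step from primitive to parietal endoderm in culture.

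Library totals lay between 27993858 and 49392806 counts (median 36797095), at which 3 counts equal 0.0607 to 0.107 CPM (the count scaled by a TMM-adjusted library total). *Mbd3* was at 149 to 157 CPM in WT and at 34.3 to 73.8 CPM in Mbd3-KO, and a count per gene does not show which exons these reads came from. The neural progenitor label held for WT, where a list of 16 progenitor genes measured here summed to 2733 to 4178 CPM, whereas the list summed to 457 to 481 CPM in Mbd3-KO, 326 to 675 CPM in MBD2a and 471 to 492 CPM in MBD2t. In these 3 lines pluripotency and trophoblast lists were higher than in WT, and in bulk RNA fewer cells of a type and less RNA per cell cannot be told apart. Of the other 4 lines, the neural list was lowest in s18, an MBD2adelGR library, at 1500.4 CPM, against 3415 and 2374 CPM in s16 and s17 of the same line. Library s18 stood apart for the genes described here: the 9 other than *Srgn* took 1.14% of its counts, against 0.0757% to 0.386% in the other 23 libraries. Every fit was therefore made with and without s18, and values without s18 are given beside part of the results.

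No library is labelled as parietal endoderm, and 8 of the 10 genes were readily measured in WT NPCs, with means from 41.0 CPM (*Nid1*) to 219 CPM (*Sparc*), so that these genes do not by themselves mark that cell type here. *Gata4*, *Gata6*, *Sox17* and *Sox7*, transcription factors of primitive endoderm, were at 6.71 ± 1.68, 9.31 ± 1.57, 24.1 ± 4.93 and 14.5 ± 6.32 CPM in WT (mean ± SD, n = 3). In s18 they were at 291, 138, 135 and 44.3 CPM, each the highest value of all 24 libraries.

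Since MBD2 and MBD3 belong to a family of proteins that bind methylated CpG, promoter sequences are shown for the genes the results turn on and for which the RefSeq promoter table (GRCm38.p6) holds a window of 250 bases before and 50 after the start, with each CpG in capitals. The table matched 5 of the 10 genes (*Lamb1*, *Nid1*, *Sparc*, *Srgn* and *Pth1r*). *Srgn* has 2 windows. No methylation or binding measurement at these windows was used here.

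Lamb1, chr12:31265043-31265342, plus strand: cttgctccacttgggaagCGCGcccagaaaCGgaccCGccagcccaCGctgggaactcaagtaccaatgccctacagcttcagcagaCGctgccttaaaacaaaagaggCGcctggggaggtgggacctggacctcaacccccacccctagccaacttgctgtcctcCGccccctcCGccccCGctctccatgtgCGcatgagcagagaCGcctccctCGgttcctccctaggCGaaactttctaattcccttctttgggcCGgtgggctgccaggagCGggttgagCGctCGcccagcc
Nid1, chr13:13437352-13437651, plus strand: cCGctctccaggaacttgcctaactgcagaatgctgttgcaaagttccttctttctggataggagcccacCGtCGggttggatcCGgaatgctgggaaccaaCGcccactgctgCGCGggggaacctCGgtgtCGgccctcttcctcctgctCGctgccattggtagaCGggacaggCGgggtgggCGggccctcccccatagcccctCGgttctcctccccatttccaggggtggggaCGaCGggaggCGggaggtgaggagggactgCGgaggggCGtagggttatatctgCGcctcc
Sparc, chr11:55420031-55420330, minus strand: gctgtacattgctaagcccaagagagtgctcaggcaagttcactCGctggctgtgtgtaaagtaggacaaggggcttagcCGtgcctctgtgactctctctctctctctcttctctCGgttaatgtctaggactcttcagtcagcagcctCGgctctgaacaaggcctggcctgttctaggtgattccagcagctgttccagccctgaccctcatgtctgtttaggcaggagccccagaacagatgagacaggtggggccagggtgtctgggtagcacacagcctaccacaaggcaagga
Srgn, first window, chr10:62507708-62508007, minus strand: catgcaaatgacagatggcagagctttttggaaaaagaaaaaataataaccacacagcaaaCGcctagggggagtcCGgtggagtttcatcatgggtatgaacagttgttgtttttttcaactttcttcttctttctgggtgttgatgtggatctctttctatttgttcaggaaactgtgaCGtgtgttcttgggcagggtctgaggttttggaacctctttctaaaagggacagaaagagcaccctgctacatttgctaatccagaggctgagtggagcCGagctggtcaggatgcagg
Srgn, second window, chr10:62527396-62527695, minus strand: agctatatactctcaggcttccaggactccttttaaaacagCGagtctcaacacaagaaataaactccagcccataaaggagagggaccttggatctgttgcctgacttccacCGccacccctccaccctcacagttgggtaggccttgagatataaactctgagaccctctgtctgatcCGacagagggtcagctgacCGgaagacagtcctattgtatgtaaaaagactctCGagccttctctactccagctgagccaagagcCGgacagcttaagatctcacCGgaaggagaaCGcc

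*Lamb1* and *Nid1* have 18 and 20 CpGs in these windows, *Sparc* has 4, and the windows of *Srgn* have 4 and 8, where the median of 32851 windows is 7 (quartiles 3 and 20). The 3 windows of *Pth1r*, not printed, hold 27, 23 and 5 CpGs. On both strands, a GC box (GGGCGG) occurs 2 times in *Lamb1* and once in *Nid1* among the printed windows, and is found in 35.7% of all windows. The GATA motif GATAA, found in 25.4% of windows, occurs in none of the 5 windows printed and once in the second window of *Pth1r*. The Sox motif ACAAT (31.0% of windows) occurs once in the second window of *Srgn*, and the AP-1 motif TGANTCA (7.81%) in none of the 8 windows of these genes. An E-box (CANNTG, in 72.3% of windows) occurs in each printed window other than that of *Nid1*, and TATAA (24.9%) once in *Nid1* and once in the second *Srgn* window. A match only says that these letters are present.

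**Figure D1:**
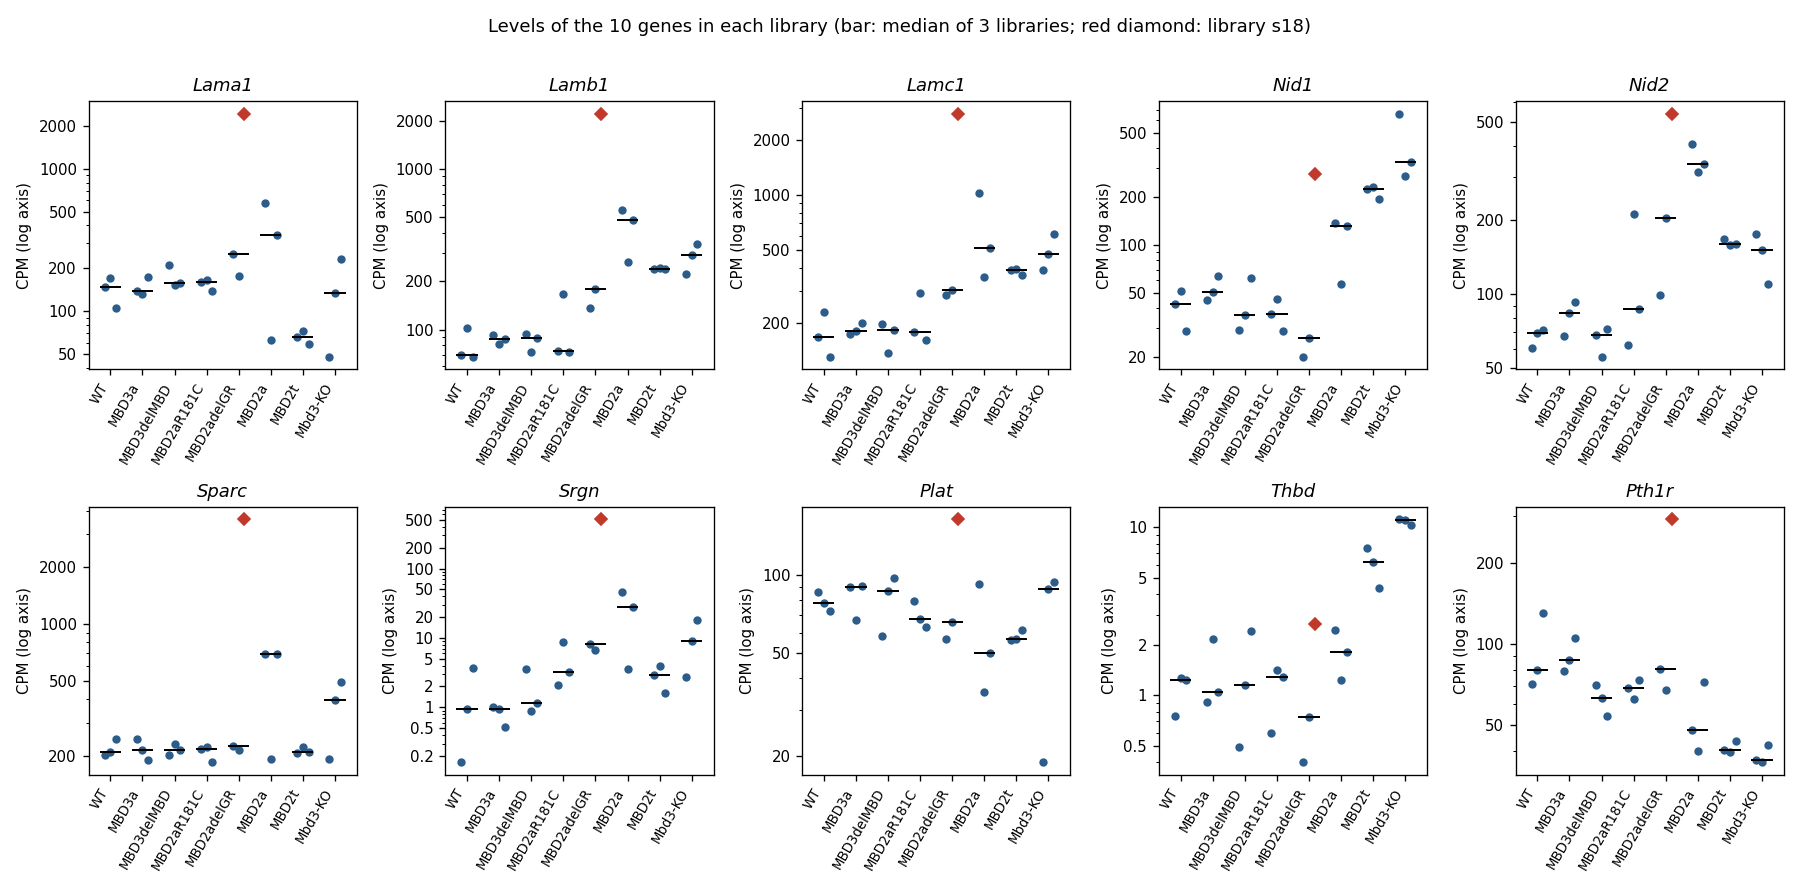
Levels of the 10 genes in CPM (log axis) in each of 24 libraries, by line, with a bar at the median of 3 libraries and a red diamond for s18. *Nid1* and *Thbd* are highest in Mbd3-KO, whereas s18 is the highest library for the other 8 genes.

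A gene was called changed at an edgeR adjusted p-value under 0.05 over all 16582 genes tested together with an absolute log2 fold change above 1, and all 10 genes passed the filter on low counts with and without s18. Comparisons against WT share the WT libraries and those against Mbd3-KO share the Mbd3-KO libraries. The laminin chains did not move as a unit. *Lama1* (NCBIM37 chr17:68046605-68171985, plus strand), the alpha chain through which the trimer binds its receptors, was at 149, 170.3 and 105 CPM in WT and at 47.8, 135 and 234 CPM in Mbd3-KO, whose libraries lie on both sides of WT. MBD2t was lower than WT in every library, at 65.6, 72.8 and 58.8 CPM, while MBD2a spread from 62.5 CPM in s14 to 343 and 572 CPM in s15 and s13. MBD2adelGR had 251, 178 and, in s18, 2439 CPM. The fitted log2 difference from WT was −0.03 ± 0.75 (SE) in Mbd3-KO (edgeR adjusted p = 0.977), a sign that turned with the scaling, −1.11 ± 0.76 in MBD2t (adjusted p = 0.218) and 1.20 ± 0.76 in MBD2a (adjusted p = 0.184, and 0.0572 without s18). It was 2.76 ± 0.79 in MBD2adelGR (adjusted p = 0.0397), and 0.60 ± 0.57 (adjusted p = 0.68) without s18.

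*Lamb1* (chr12:31950099-32014509, plus strand), the beta chain, was higher in Mbd3-KO, MBD2a and MBD2t than in WT. Its levels were 70.2, 103 and 67.8 CPM in WT, 224, 294 and 344 CPM in Mbd3-KO, 557, 263 and 484 CPM in MBD2a, and 239, 244 and 240 CPM in MBD2t, so that no library of these 3 lines overlapped WT. *Lamb1* rose by 1.84 ± 0.67 (log2) in Mbd3-KO (edgeR adjusted p = 0.0245), 2.44 ± 0.69 in MBD2a (0.00579) and 1.59 ± 0.67 in MBD2t (0.0481), and without s18 the same differences were 1.84 ± 0.30, 2.43 ± 0.30 and 1.58 ± 0.29, the estimates being close and the standard errors smaller. With 1 WT or MBD2t library left out, the MBD2t difference had an adjusted p of 0.0607 to 0.118 and was not called, and with 1 WT or Mbd3-KO library left out the Mbd3-KO difference had one of 0.03 to 0.0704, without a call when s01, s03 or s06 was missing. MBD2adelGR was at 137, 178 and, in s18, 2214 CPM, and its log2 difference of 3.39 ± 0.72 (adjusted p = 0.012) came to 0.98 ± 0.32 (adjusted p = 0.171) when s18 was left out.

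*Lamc1* (chr1:155066052-155179916, minus strand), the gamma chain, followed *Lamb1* closely. It was at 167, 231 and 130.0 CPM in WT, 388, 477 and 611 CPM in Mbd3-KO, 1031, 356 and 512 CPM in MBD2a, 391, 393 and 368 CPM in MBD2t, and 284, 303 and 2794 CPM in MBD2adelGR. The Mbd3-KO, MBD2a and MBD2t libraries were all above the highest WT library. It rose by 1.49 ± 0.60 (log2) in Mbd3-KO (edgeR adjusted p = 0.0393) and 1.85 ± 0.61 in MBD2a (0.0146), while the difference of 1.13 ± 0.60 in MBD2t had an adjusted p of 0.111 with all libraries and of 0.00368 without s18. The call in Mbd3-KO was lost without s01, s03, s05 or s06 (adjusted p up to 0.115), and that in MBD2a without s03 or s13 (0.0531 and 0.0873). Without s18 the edgeR adjusted p was 0.000403 in Mbd3-KO and 7.29e-05 in MBD2a. Across the 24 libraries the Pearson correlation of *Lamb1* and *Lamc1* was 0.98 on the log2 CPM scale (0.97 in 23 libraries without s18), and that of *Lama1* and *Lamb1* was 0.52 (0.11 without s18), values that share the libraries and their scaling.

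Both nidogens were higher in Mbd3-KO and in MBD2t than in WT. *Nid1* (chr13:13529869-13604542, plus strand) was at 42.6, 51.5 and 29.0 CPM in WT and at 660.0, 268 and 327 CPM in Mbd3-KO, the highest 3 values of the series apart from s18, which at 276 CPM lay between them. MBD2t had 223, 228 and 193 CPM, MBD2a 137, 56.5 and 131 CPM, and MBD2adelGR 19.9 and 25.9 CPM beside s18. In Mbd3-KO and MBD2t every library was well above WT, in MBD2a every library was above WT but s14 by a small margin, and s16 and s17 were below the lowest WT library. The log2 fold changes against WT were 3.35 ± 0.71 in Mbd3-KO (edgeR adjusted p = 0.00053), 2.39 ± 0.69 in MBD2t (0.0057) and 1.40 ± 0.67 in MBD2a (0.0814, and 0.00277 without s18). Against Mbd3-KO, *Nid1* was lower in MBD3a (log2 −2.97 ± 0.70, edgeR adjusted p = 0.00139), in MBD2aR181C (−3.49 ± 0.72, 0.000436) and in MBD2adelGR (−1.96 ± 0.67, 0.0222), the last being −4.19 ± 0.48 without s18.

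*Nid2* (chr14:20570479-20631009, plus strand) had its highest line median in MBD2a rather than Mbd3-KO. It was at 60.8, 69.6 and 71.8 CPM in WT, 175, 152 and 109.5 CPM in Mbd3-KO, 405, 312 and 338 CPM in MBD2a, 168, 158 and 159.9 CPM in MBD2t, and 99.3, 203 and 539.8 CPM in MBD2adelGR. All 12 of these libraries lay above WT, and the 3 MBD2a libraries all lay above Mbd3-KO and MBD2t. The log2 fold change against WT was 1.11 ± 0.44 in Mbd3-KO (edgeR adjusted p = 0.0344), 2.38 ± 0.45 in MBD2a (0.000245), 1.27 ± 0.44 in MBD2t (0.0177) and 2.06 ± 0.45 in MBD2adelGR (0.0141, and 1.17 ± 0.36 with an adjusted p of 0.14 without s18). The call in Mbd3-KO was lost when any 1 library of WT or Mbd3-KO other than s06 was left out (adjusted p 0.0609 to 0.102), and that in MBD2t without s01 (0.0547). Without s18 the edgeR adjusted p was 0.00665 in Mbd3-KO and 0.00264 in MBD2t. MBD2a exceeded Mbd3-KO by 1.27 ± 0.43 with an adjusted p of 0.076, which was 0.0153 without s18.

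*Sparc* (chr11:55208002-55233582, minus strand) was the most abundant of the 10 genes in WT per length as well as in CPM, with a mean of 65.1 RPKM, the read count scaled by exon length and library total. WT was at 202, 209 and 246 CPM, MBD2t at 206, 223 and 210.2 CPM, MBD2a at 694, 193 and 699 CPM, and Mbd3-KO at 193, 394 and 495 CPM. The low libraries of the last 2 lines, s14 and s04, were below the lowest WT library while their sister libraries were above the highest. The log2 difference from WT was 0.72 ± 0.70 in Mbd3-KO (edgeR adjusted p = 0.391) and 1.27 ± 0.71 in MBD2a (0.136, and 0.0037 without s18). In MBD2adelGR, s16 and s17 were at 225 and 216 CPM, inside the WT range, and s18 at 3607 CPM. The log2 difference of 2.62 ± 0.74 (adjusted p = 0.0368) was 0.01 ± 0.37 (adjusted p = 0.992) without s18. Against Mbd3-KO the difference of MBD2adelGR was 1.90 ± 0.72 with s18 (adjusted p = 0.0371) and −0.71 ± 0.38 without it (0.132).

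*Srgn* (chr10:61956581-61990199, minus strand) was near the lower end of measurement in WT, at 0.161, 0.963 and 3.65 CPM (6, 35 and 150 reads). It was at 2.74, 9.12 and 17.9 CPM in Mbd3-KO, 46.5, 3.56 and 27.7 CPM in MBD2a, and 2.93, 3.92 and 1.62 CPM in MBD2t. In s18, the library it was picked for, it had 515 CPM (18582 reads), against 8.20 and 6.76 CPM in s16 and s17. WT alone thus spanned a wide range, and s14 of MBD2a was below the highest WT library. The log2 fold change was 3.99 ± 1.40 in MBD2a against WT (edgeR adjusted p = 0.0209, and 0.0664 to 0.0759 without s01, s02 or s13), and 2.61 ± 1.39 in Mbd3-KO (0.112, and 2.60 ± 0.89 with an adjusted p of 0.0169 without s18). A list of 17 genes of blood and mast cells, which also use serglycin, summed to 23.1 CPM in s18. This sum lay between those of s16 and s17, and all libraries of the line were below the 32.8 to 39.3 CPM of WT. In Mbd3-KO the list summed to 157 to 186 CPM and in MBD2a to 51.7 to 111 CPM. Much of the Mbd3-KO sum came from *Gata2*, at 103.4 to 139.9 CPM against 9.50 to 12.4 CPM in WT. In MBD2a *Gata2* was at 21.7 to 66.3 CPM. The sum is thus not an even measure of the list. Of the 11 listed genes tested, 6 were called higher and 0 lower in Mbd3-KO. The part of the listed genes in the *Srgn* values of s18, Mbd3-KO and MBD2a was not tested.

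*Plat* (chr8:23868216-23893319, plus strand) was not called in any of the 13 comparisons by edgeR, with or without s18. It was at 86.2, 78.1 and 72.8 CPM in WT, 18.8, 88.4 and 94.6 CPM in Mbd3-KO, 92.4, 35.2 and 50.1 CPM in MBD2a, 56.0, 56.8 and 61.3 CPM in MBD2t, and 56.5, 65.9 and 165 CPM in MBD2adelGR. The lowest value of the series was in s04 and the highest in s18. *Thbd* (chr2:148230207-148233924, minus strand), a gene of low level, set Mbd3-KO and MBD2t apart from the other lines. WT had 0.751, 1.27 and 1.24 CPM, Mbd3-KO 11.2, 11.02 and 10.4 CPM, MBD2t 7.53, 6.23 and 4.37 CPM, MBD2a 2.45, 1.24 and 1.81 CPM, and MBD2adelGR 0.399, 0.745 and 2.66 CPM. Mbd3-KO overlapped no other line, and MBD2t overlapped neither Mbd3-KO nor any other line. *Thbd* rose by 3.32 ± 0.48 (log2) in Mbd3-KO (edgeR adjusted p = 1.32e-05) and 2.47 ± 0.49 in MBD2t (0.000281) against WT, and MBD2a differed from WT by 0.75 ± 0.55 (0.254). Compared with Mbd3-KO it fell by 2.57 on the log2 scale in MBD2a (SE 0.45, adjusted p = 0.00122), and it was also called lower in MBD3a, MBD2adelGR and MBD2aR181C, with log2 differences of −2.99 ± 0.48, −3.07 ± 0.48 and −3.33 ± 0.48. Endothelial cells also use *Thbd*, and a list of 15 endothelial genes summed to 263 to 356 CPM in Mbd3-KO and 288 to 313 CPM in MBD2t, against 127 to 163 CPM in WT and 99.2 to 191 CPM in MBD2a. Of these 15 genes, 4 were called higher and 0 lower in Mbd3-KO, with a median log2 difference of 0.29. In MBD2t the counts were 6 and 0, with a median of 0.75. Of all genes tested, 33.8% and 33.4% were called in these lines. In MBD3a the endothelial list summed to 166 to 322 CPM, the highest in s09, where *Thbd* was at 1.04 CPM. The trophoblast list was at 1108 to 1391 CPM in Mbd3-KO and 944 to 1033 CPM in MBD2t, against 70.7 to 125 CPM in WT, 212 to 775 CPM in MBD2a and 74.7 to 166 CPM in MBD3a. The part of either cell type in the *Thbd* result was not tested.

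*Pth1r* (chr9:110624592-110649649, minus strand) was the gene of the group that was lower in Mbd3-KO. It was at 70.8, 79.8 and 131 CPM in WT, 37.0, 36.3 and 42.1 CPM in Mbd3-KO, 40.5, 39.8 and 43.4 CPM in MBD2t, and 47.8, 40.2 and 72.5 CPM in MBD2a. All Mbd3-KO and MBD2t libraries were below WT, and s15 of MBD2a was within its range. The log2 fold change was −1.29 ± 0.38 in Mbd3-KO (edgeR adjusted p = 0.00695) and −1.19 ± 0.38 in MBD2t (0.0114), and −0.81 ± 0.38 in MBD2a (0.0748). Without s18 the edgeR adjusted p was 4.12e-05 in Mbd3-KO and 9.07e-05 in MBD2t. In MBD2a it was 0.00281, with the change still under the fold change threshold. Both calls were lost without s03, the highest WT library. The log2 difference was then −0.97 in Mbd3-KO (edgeR adjusted p = 0.0449) and −0.87 in MBD2t (0.069), both under the fold change threshold. In MBD2adelGR *Pth1r* was at 81.0, 67.7 and, in s18, 292 CPM. Against Mbd3-KO the gene rose by 1.24 ± 0.38 in MBD3a (adjusted p = 0.00962), and by 1.94 ± 0.39 in MBD2adelGR (0.000484), where the difference without s18 was 0.95 ± 0.23, under the fold change threshold.

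In MBD3a, MBD3delMBD and MBD2aR181C none of the 10 genes was called against WT. Over these 9 libraries *Lamb1* ranged from 72.4 to 168 CPM (median 88.0), *Nid1* from 28.7 to 64.01 CPM (median 45.4), *Sparc* from 185 to 245 CPM (median 216) and *Thbd* from 0.497 to 2.43 CPM (median 1.15). *Pth1r* in MBD3delMBD, at 53.9 to 70.2 CPM, was below every WT library, with a log2 difference of −0.59 ± 0.38 (edgeR adjusted p = 0.792). The edgeR test called 0 of the 10 genes in any of the 3 lines against WT, with and without s18, and DESeq2 also called 0. At an unadjusted p under 0.05 there were 0 genes with all libraries, and 2 in MBD2aR181C, 0 in MBD3a and 1 in MBD3delMBD without s18, where 4.99%, 2.33% and 8.54% of all genes tested were under it. The share of all genes called was 0.0181% in MBD2aR181C (0.0179% without s18), 0.0181% in MBD3delMBD (0.0418% without s18) and 0% in MBD3a. One MBD2aR181C library, s20, had the highest value of its line for 8 of the 10 genes, where 37.6% of all genes tested were highest in it, with *Nid2* at 212 CPM against 62.1 and 87.1 CPM in s19 and s21.

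Counted over the group, 6 of the 10 genes were called in Mbd3-KO against WT, where 33.8% of all genes tested were called, 5 higher (*Lamb1*, *Lamc1*, *Nid1*, *Nid2*, *Thbd*, background 19.6%) and 1 lower (*Pth1r*, background 14.2%), with a median log2 difference of 1.30 against −0.03 over all genes. Without s18 there were 7 (background 34.5%), *Srgn* being added, and with 1 WT or Mbd3-KO library left out 2 to 5, the fewest without s01 (3) and s03 (2). *Nid1* and *Thbd* kept their calls in Mbd3-KO and in MBD2t under each of the 16 alternatives run. In MBD2t 5 were called (background 33.4%) and 6 without s18 (33.9%), with 3 left without s01 or s03, and a median of 0.95. In MBD2a 4 were called, all higher (background 30.6%, or 16.9% for higher alone), 6 without s18 (31.3%) and 2 without s13, with a median of 1.34. In MBD2adelGR 5 of the 9 genes tested were called, all higher (background 5.16%, or 2.69% for higher alone), and 0 without s18 by edgeR (0.722%), when 3 had an unadjusted p under 0.05 (13.6% of all genes tested). The count was also 0 without s01, 1 without s02 and 3 without s03. The median log2 difference of these 9 genes was 2.06 with s18 and 0.01 without it. The 3 libraries did not overlap those of WT for 6 genes in Mbd3-KO, 8 in MBD2t and 4 in MBD2a, where the same held for 62.2%, 69.2% and 56% of all genes tested, so that these counts are near the background.

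**Figure D2:**
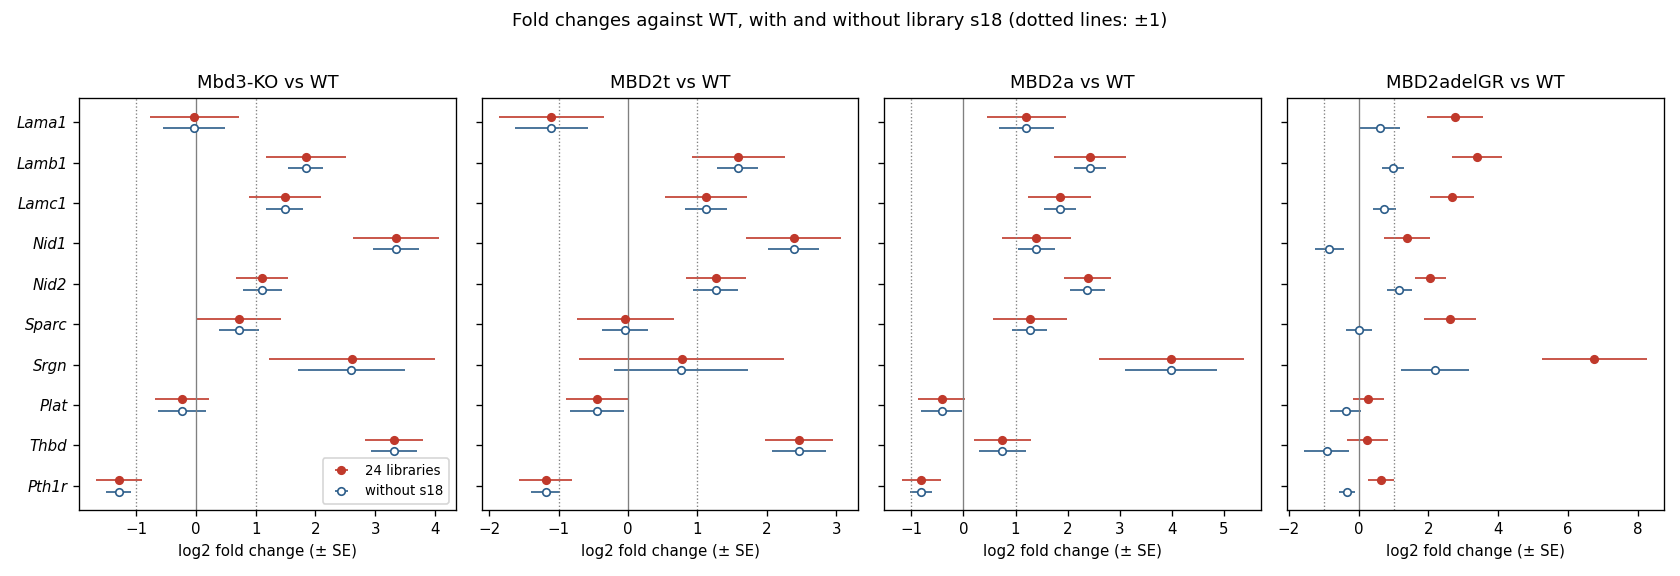
Log2 fold change (± SE) of each gene against WT in 4 lines, fitted with 24 libraries (filled) or without s18 (open), with dotted lines at ±1. *Srgn* was picked for its value in s18, so its points in MBD2adelGR are a description and their error bars stand for no test. In the first 3 lines the estimates of both fits lie on top of each other and only the errors differ, whereas in MBD2adelGR the estimates without s18 lie nearer to 0 or turn below it.

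MBD3a, MBD2a, MBD2adelGR and MBD2aR181C were also compared with Mbd3-KO, which asks what a construct changes in the mutant background. MBD3delMBD and MBD2t were not. Against Mbd3-KO, MBD3a had 4 of the 10 genes called (background 32.4%, and 6 without s18, 33.1%), *Lamb1*, *Nid1* and *Thbd* being lower and *Pth1r* higher. MBD2aR181C had 2 (31.1%, and 4 without s18, 32%), *Nid1* and *Thbd*, both lower. MBD2adelGR had 5 of 9 (25.2%), with *Lama1*, *Sparc* and *Pth1r* higher and *Nid1* and *Thbd* lower, and without s18 the 2 genes called (28.5%) were *Nid1* and *Thbd*. MBD2a had 1 (5.25%), *Thbd*, and 3 without s18 (6.37%), when *Nid1* was lower and *Nid2* higher as well. The direct comparisons of the MBD2a constructs also changed without s18, but not alike. Against MBD2aR181C the *Lamb1* difference stayed at 2.05, and its standard error went from 0.68 to 0.30. Against MBD2adelGR, the line of s18, estimates themselves moved. There *Lamb1* turned from −0.96 ± 0.66 to 1.46 ± 0.34, while *Pth1r* stayed below 0, at −1.46 ± 0.38 and −0.48 ± 0.23. MBD2a exceeded MBD2aR181C in 3 genes, *Lamb1* by 2.05 ± 0.68, *Lamc1* by 1.59 ± 0.60 and *Nid2* by 1.55 ± 0.44 (edgeR adjusted p = 0.017, 0.0339 and 0.00671, background 27.3%, or 15.1% for higher alone), and in 6 genes without s18 (28.2%). Against MBD2adelGR, 1 of 9 genes was called with s18 (*Pth1r*, lower in MBD2a, background 18.6%), and 6 without it, all higher in MBD2a (22.9%, or 13.7% for higher alone), namely *Lamb1*, *Lamc1*, *Nid1*, *Nid2*, *Sparc* and *Thbd*.

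The proportions between chains, which do not depend on the scaling of a library, differed between the lines. In RPKM, *Lama1* exceeded *Lamb1* in WT, at a ratio of 1.85 ± 0.318 (SD, n = 3), whereas the ratio was 0.469 ± 0.242 in Mbd3-KO, 0.686 ± 0.414 in MBD2a and 0.284 ± 0.0274 in MBD2t, with no overlap with WT. It was 1.37 ± 0.472 in MBD2adelGR, where s18, at 1.15, lay between s16 and s17, at 1.91 and 1.04. In MBD2aR181C it was 1.77 ± 0.654, overlapping WT, with s20 at 1.03. The ratio of *Lamb1* to *Lamc1* moved less, from 0.386 ± 0.0437 in WT to 0.488 ± 0.0222 in Mbd3-KO, 0.617 ± 0.169 in MBD2a and 0.524 ± 0.0174 in MBD2t. *Nid1* was below *Nid2* in WT, at a ratio of 0.497 ± 0.148, above it in Mbd3-KO, at 2.29 ± 0.814, about equal to it in MBD2t, at 1.07 ± 0.0947, and further below it in MBD2a, at 0.245 ± 0.0878. A low ratio was not particular to MBD2a. It was 0.226 ± 0.165 in MBD2adelGR and 0.307 ± 0.156 in MBD2aR181C, both overlapping WT. The 3 values of each of Mbd3-KO, MBD2a and MBD2t did not overlap those of WT in any of the 3 ratios. Each of these differences had p = 0.1 in a two-sided exact permutation test of the log2 ratios, the smallest value that 3 against 3 libraries allow, and an adjusted p of 0.233 over the 28 tests made (4 ratios, with *Lama1* to *Lamc1*, and 7 lines).

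**Figure D3:**
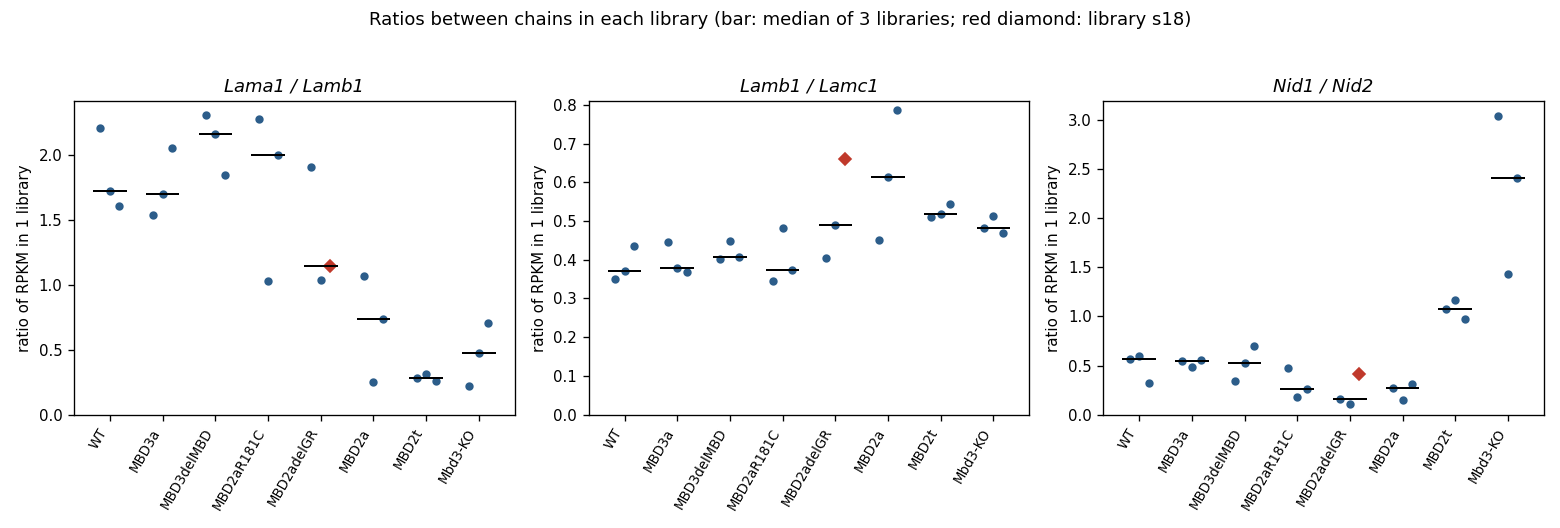
Ratio of RPKM between laminin chains and between nidogens within each of 24 libraries, by line, with a bar at the median of 3 libraries and a red diamond for s18. *Lama1* to *Lamb1* is below 1.1 in every MBD2a, MBD2t and Mbd3-KO library, and also in s17 of MBD2adelGR (1.04) and s20 of MBD2aR181C (1.03). *Nid1* to *Nid2* is above 1 in all Mbd3-KO libraries and in 2 of 3 MBD2t libraries.

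Leaving aside *Srgn*, which was picked for its value in s18, this library was the highest of MBD2adelGR for all 9 genes, where 41.6% of all genes tested were highest in it, and it was the highest of all 24 libraries for 7 genes, where this held for 11.8% of genes tested. It was more than 2 times the next highest library for 5 genes (*Lama1*, *Lamb1*, *Lamc1*, *Sparc* and *Pth1r*), where this held for 1.44% of genes tested. Over the mean of s16 and s17 the CPM ratio was 68.8 for *Srgn*, 16.3 for *Sparc*, 14.03 for *Lamb1*, 12.1 for *Nid1*, 11.4 for *Lama1*, 9.52 for *Lamc1*, 4.65 for *Thbd*, 3.93 for *Pth1r*, 3.57 for *Nid2* and 2.70 for *Plat*. *Nid1* and *Thbd*, the 2 genes with the highest line median in Mbd3-KO, were the ones for which s18 did not exceed all other libraries. *Col4a1* and *Col4a2*, the type IV collagen chains, were at 10056 and 6378 CPM in s18, against 672 and 451 CPM in s16 and 491 and 293 CPM in s17. A list of 22 visceral endoderm genes was also highest in s18, at 2766 CPM against 143 to 292 CPM in WT, and its part in these results was not tested.

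**Figure D4:**
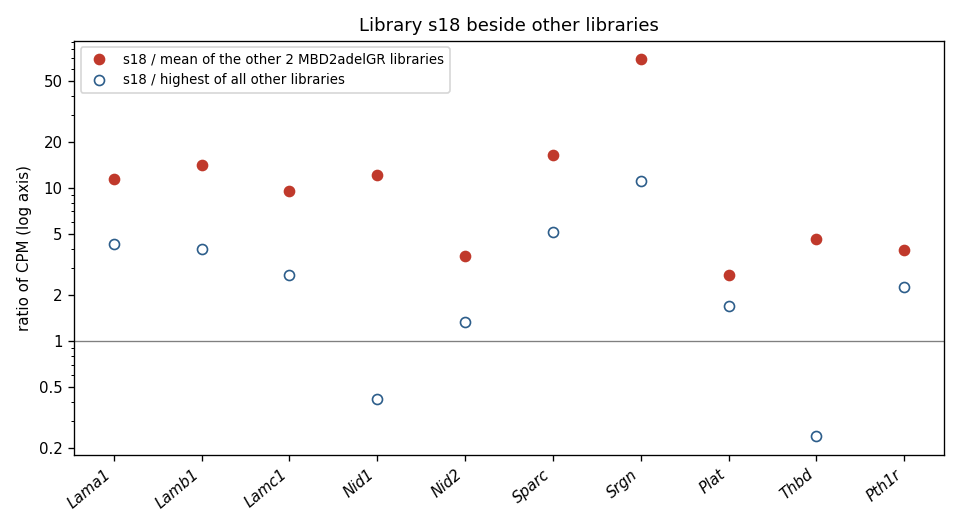
CPM of each gene in s18 divided by the mean of s16 and s17 (filled) and by the highest of all other libraries (open), on a log axis with a line at 1. All filled points are above 1, from 2.70 (*Plat*) to 68.8 (*Srgn*), and the open points of *Nid1* and *Thbd* are below 1.

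Other libraries stood apart less. In MBD2a, s14 had the lowest value of its line for all 10 genes, where 26.1% of all genes tested were lowest in it, and *Gata4*, at 8.40 CPM, was likewise below s13 and s15, at 51.3 and 80.7 CPM. In Mbd3-KO, s04 was the lowest for 6 genes (44.5% of genes tested) and the highest for 3, among them *Nid1*. The coefficient of variation within Mbd3-KO was thus 67.1% for *Lama1* and 62.5% for *Plat*, but 3.92% for *Thbd* and 8.21% for *Pth1r*. In MBD2t, a single clone, it was 1.22% for *Lamb1* and at most 41.0% (*Srgn*).

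The surrounding genes of the same structures were examined with lists chosen by function, and their calls are to be read against the 33.8%, 33.4%, 30.6% and 5.16% of all genes called in Mbd3-KO, MBD2t, MBD2a and MBD2adelGR against WT (0.722% in the last without s18). Of 29 further basement membrane genes tested, 9 were higher and 5 lower in Mbd3-KO against WT, 10 and 5 in MBD2t, 13 and 5 in MBD2a, and 2 and 2 in MBD2adelGR (0 and 1 without s18). The median log2 differences of the list were 0.85, 0.52, 0.91 and 0.12. Without s18 the counts were 11 and 5 in Mbd3-KO, 11 and 5 in MBD2t, and 13 and 5 in MBD2a, beside 34.5%, 33.9% and 31.3% of all genes. *Lama5*, a chain of other laminins, rose in Mbd3-KO by 2.32 ± 0.26, whereas *Ntn4*, a netrin that binds laminin, fell by 3.53. *Col4a1* differed from WT by 1.497 ± 0.77 in Mbd3-KO (edgeR adjusted p = 0.0991, called without s18) and rose by 2.13 ± 0.78 in MBD2a (0.027). Of 13 laminin receptor genes, 9 were higher and 0 lower in Mbd3-KO, and 7 higher and 0 lower in both MBD2a and MBD2t, with medians of 1.29, 1.37 and 1.25. The integrin chains *Itga7* and *Itgb4* rose in Mbd3-KO by 4.41 ± 0.47 and 3.48 ± 0.41. In MBD2adelGR 2 receptor genes were called higher, and 0 by edgeR without s18, when 6 had an unadjusted p under 0.05 (13.6% of all genes tested). Of 17 genes for collagen folding and crosslinking, 3 were higher and 2 lower in Mbd3-KO, a share below that of all genes, and 5 and 1 in MBD2adelGR (0 and 1 without s18).

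Of 11 other genes of the plasminogen system tested, 7 were higher and 1 lower in Mbd3-KO (all genes tested 19.6% and 14.2%) while *Plat* itself was not called, with *Plaur*, the urokinase receptor, rising by 2.99 ± 0.70. In MBD2t there were 7 and 2, and in MBD2a 4 and 1. Of 11 coagulation cofactors tested beside *Thbd*, 4 were higher and 1 lower in Mbd3-KO, among them *Procr*, the endothelial protein C receptor, which rose by 3.52 ± 0.61, and *Tfpi*, the inhibitor of tissue factor, by 2.88 ± 0.73. *F2r*, the main thrombin receptor, fell by 1.46. Of 5 ligands, receptors and partners of the parathyroid hormone system tested beside *Pth1r*, 1 was higher and 1 lower in Mbd3-KO, and the counts of these last 2 lists are not far from the share of all genes. Of the 86 genes tested in these 6 lists, 0 were called by edgeR in MBD3a, MBD3delMBD or MBD2aR181C against WT, and 1, 2 and 3 had an unadjusted p under 0.05 (1.77%, 7.16% and 3.95% of all genes tested).

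Of 20 primitive and parietal endoderm factors and markers, 11 were higher and 1 lower in Mbd3-KO, 9 and 2 in MBD2t, 11 and 1 in MBD2a, and 11 and 0 in MBD2adelGR (0 and 1 without s18), beside 33.8%, 33.4%, 30.6% and 5.16% of all genes called in either direction. Without s18 the counts were 14 and 2 in Mbd3-KO, 11 and 2 in MBD2t and 14 and 1 in MBD2a. The shares of all genes were then 34.5%, 33.9% and 31.3%, and 0.722% in MBD2adelGR. Among those called with all 24 libraries at a mean log2 CPM of at least 1, the largest change in Mbd3-KO was that of the 1 lower gene, *Vim*. It encodes vimentin, the intermediate filament protein of mesenchymal and neural progenitor cells. *Vim* was at 967 to 1176 CPM in WT and 21.8 to 98.1 CPM in Mbd3-KO (log2 −3.89 ± 0.46, edgeR adjusted p = 1.59e-06). The keratins *Krt19*, *Krt8* and *Krt18*, which many epithelia express, rose by 3.30, 3.09 and 2.50. *Gata4* and *Gata6* differed from WT by 0.94 ± 0.94 and 1.08 ± 0.69 (edgeR adjusted p = 0.4 and 0.182), *Sox17* by −1.09 ± 0.47 (0.0518) and *Sox7* by −0.15 ± 0.48 (0.802). In MBD2a *Gata4* rose by 2.80 ± 0.95 (adjusted p = 0.0181) and *Gata6* by 1.89 ± 0.69 (0.0267).

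By Pearson correlation over log2 CPM in the 24 libraries, the genes outside the group most like the mean of the 3 laminin chains were *Fst* (0.96), *Col4a1* (0.95), *P3h1* (0.95), *Ctsa* (0.95) and *Ctns* (0.95), with values of 0.90, 0.90, 0.88, 0.87 and 0.87 in 23 libraries without s18. Those most like *Srgn* were *Pga5* (0.99), *Aqp8* (0.98), *Tcf23* (0.94), *Ugt2b34* (0.94) and *Glipr1* (0.94), with 0.98, 0.96, 0.91, 0.91 and 0.89 without s18. Within the group, *Nid1* and *Thbd* correlated at 0.91 (0.93 without s18) and *Thbd* and *Pth1r* at −0.49 (−0.73). These are descriptions over libraries that share lines and scaling.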

How the data were processed

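The authors made directional single-end libraries of poly(A) RNA, trimmed the reads with Trim Galore, aligned them with STAR to NCBIM37 (mm9) and counted reads per gene with qCount of QuasR. The deposited values are those whole-number counts, with no normalization. How the counting treated strand is not given in the sources used here, so that *Lamb1*, *Lamc1* and *Nid2* cannot be told apart from genes annotated on the opposite strand (*Gm11053*, *Gm8818* and *2700060E02Rik*). ChIP-seq samples were not analysed here.

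Low genes were removed by filterByExpr (16582 of 25400 genes left, 16763 without s18). Counts were scaled with TMM and fitted in edgeR 4.0.16 (R 4.3.3) with line as the factor, using glmQLFit and glmQLFTest on all 24 libraries together. Calls needed a Benjamini-Hochberg adjusted p under 0.05 over all genes tested and an absolute log2 fold change above 1. Standard errors equal the size of the log2 fold change over the root of its F statistic. CPM used TMM-scaled totals, log2 CPM a prior count of 1 and RPKM the union exon length of the GENCODE annotation. The script was tested on simulated counts. Libraries of a line differed by more than sampling noise (smallest chi-square per gene 3.33). The level of 3 counts covers counting error only.

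The 10 genes and 14 gene lists were chosen with earlier results of these data known. The text names the 10 genes, up to 4 genes per list with the largest change among those called in Mbd3-KO against WT at a mean log2 CPM of at least 1, a set of context genes, and the 5 genes most correlated with the laminin chains and with *Srgn*. Alternatives were RLE, upper quartile and library size scaling, no filter, DESeq2 1.42.0, glmTreat, no fold change threshold, only the 2 lines compared, each library left out in turn, no s18 and, added after the data were seen, the legacy form of the edgeR test.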

Additional observations from a re-analysis of the deposited data

How the results depend on the processing

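The 2 MBD3 lines and MBD2aR181C had 0 of the 10 genes called against WT under every alternative run. With glmTreat, which tests against the threshold itself, 2 genes were called in Mbd3-KO, MBD2t and MBD2a and 0 in MBD2adelGR against WT, 2 in MBD3a and 3 in MBD2adelGR against Mbd3-KO, and 0 in MBD2a against MBD2adelGR or MBD2aR181C. Without s18, 0 genes were called in MBD2adelGR against WT, 3, 2 and 4 in MBD2a, MBD2adelGR and MBD2aR181C against Mbd3-KO, and 6 in MBD2a against MBD2adelGR and against MBD2aR181C. *Sparc* in MBD2adelGR against Mbd3-KO turned from 1.90 to −0.71 (edgeR adjusted p = 0.132), the lowest of −0.71 to 2.34 with single libraries left out. With only the 2 lines compared in the fit, the counts were 0 in MBD2adelGR against WT, 2, 2 and 4 in MBD2a, MBD2adelGR and MBD2aR181C against Mbd3-KO, and 0 and 5 in MBD2a against MBD2adelGR and MBD2aR181C. DESeq2 called 3 genes in MBD2a and 4 in MBD2aR181C against Mbd3-KO. The cause of these shifts was not tested.

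Leaving out single libraries gave 2 to 5 genes in Mbd3-KO, 3 to 4 in MBD2t, 2 to 5 in MBD2a and 0 to 6 in MBD2adelGR against WT. The moves came without s01 (3, 3 and 0 in Mbd3-KO, MBD2t and MBD2adelGR), s02 (1 in MBD2adelGR), s03 (2, 3 and 3), s13 (2 in MBD2a) and s18. The range was 2 to 7 in MBD2adelGR against Mbd3-KO (3 without s04 and 2 without s18), 1 to 6 in MBD2a against MBD2adelGR (3 without s17, 6 without s18), and 1 to 4 in MBD2a against MBD2aR181C (1 without s19 or s21). Library size and upper quartile scaling moved the median log2 difference of all genes by up to 0.16 and 0.12, and one or more of RLE and these scalings turned the sign of *Lama1* in Mbd3-KO, *Sparc* in MBD2t and *Plat* in MBD3delMBD against WT, and of *Lama1* in MBD3a and *Plat* in MBD2aR181C against Mbd3-KO, with no call among them. No paired analysis was possible because the deposited columns carry no replicate numbers.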

Other observations

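The marker lists of other cell types moved with the lines as follows, as calls of edgeR against WT, where 33.8% of all genes tested were called in Mbd3-KO, 33.4% in MBD2t, 30.6% in MBD2a and 5.16% in MBD2adelGR. In Mbd3-KO all 16 neural progenitor genes tested were lower, led by *Vxn*, *Fabp7*, *Hes5* and *Neurog2* with log2 differences of −7.51, −7.12, −6.93 and −6.91. The pluripotency list had 11 of 12 genes higher in Mbd3-KO, in MBD2a and in MBD2t, with *Pou5f1* at 109 ± 61.7 CPM in Mbd3-KO and 17.025 ± 18.8 CPM in WT (SD, n = 3). The trophoblast list had 14 of 15 genes higher in Mbd3-KO and MBD2t and 9 in MBD2a. Of 21 visceral endoderm genes tested, 9 were higher in Mbd3-KO, 13 in MBD2a and 17 in MBD2adelGR (all genes tested 19.6%, 16.9% and 2.69%), the last being 0 without s18 (2 at an unadjusted p under 0.05, which 13.6% of all genes had). Without s18, 11 were higher in Mbd3-KO and 19 in MBD2a, where 34.5% and 31.3% of all genes were called in either direction. The fibrinogen chain *Fga* rose in Mbd3-KO by 5.51.

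Of 15 endothelial genes, 4 were higher and 0 lower in Mbd3-KO, fewer than the share of all genes, with a median log2 difference of 0.29. In MBD2a 2 were higher and 8 lower, with a median of −1.54, and the difference between the lines was not tested. *Cdh5*, the cadherin of endothelial junctions, had log2 differences from WT of 2.29 in Mbd3-KO and −1.78 in MBD2a. Of 11 blood and mast cell genes tested, 6 were higher in Mbd3-KO, with *Gata2* at 3.59. Of 15 mesenchyme genes, 3 were higher and 7 lower in Mbd3-KO, with *Prrx1* at −3.51 and *Tagln* at 1.58.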
